A study of Mus musculus with 4 samples.

Results

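Potassium channel genes were examined in hippocampal RNA of mice that had gone through repeated social defeat stress (R-SDS) and of mice that had not. A gene was taken if the platform annotation gave its row a single symbol beginning with Kcn, except Kcnj13, Kcne2 and Kcnj8, and a gene with several rows was represented by the row with the highest mean over the 4 arrays. This gave 89 genes of 19938, of which 86 encode pore or auxiliary subunits and regulators and 3 are non-coding transcripts named after a channel gene. RNA came from male C57BL/6JJmsSlc mice aged 11 to 12 weeks, with 1 Affymetrix array per sample. The R-SDS group (2 arrays) had met an aggressive male of the ICR strain for 10 min a day over 10 days, with the ICR mouse kept behind a divider in between, and the Control group (2 arrays) had been housed in pairs in divided cages without defeat. The study describes its R-SDS arrays as coming from susceptible mice, which avoid an ICR mouse, whereas the sample labels give only the stress. Values are log2 RMA values, that is, background-corrected and normalised probe signals on a log2 scale, where a difference of 1 is a doubling of signal. The methods speak of separate mice, but the labels do not tie an array to an animal, and the p-values cover only the spread among the arrays at hand, which may be technical.

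Potassium channels let potassium leave the cell down its gradient and so set the resting potential, end the action potential and limit repetitive firing. Voltage-gated channels are tetramers of Kcna, Kcnb, Kcnc, Kcnd, Kcnq or Kcnh subunits, and the Kcnf, Kcng, Kcns and Kcnv subunits, which form no channel alone, modify those of the Kcnb group. Inward rectifiers (Kcnj) pass current near rest and include the channels opened by G proteins and by falling ATP, leak channels (Kcnk) carry a pair of pore loops in each subunit, and Kcnma1 and the Kcnn subunits open when intracellular calcium rises. In the hippocampus, A-type channels of Kcnd subunits damp dendritic signals, M-type channels of Kcnq subunits restrain bursts of spikes, and Kcnj10 in astrocytes takes up potassium released by neurons. Kcnk2 and Kcnq channels are also known from work on depression-like behaviour in rodents.

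The comparison asked which potassium channel genes differ between R-SDS and Control hippocampus, and none of them passed the test. In limma with Benjamini-Hochberg adjustment over 21789 transcripts, 0 of 89 genes had an adjusted p under 0.05 (all had an adjusted p of 1), and 0.0% of all genes did. At an unadjusted p under 0.05 limma also counted 0 of the 89, against 0.983% of all genes. The count was 4 (Kcnj2, Kcnh5, Kcna5 and Kcnk6, 4.49%) when limma took the replicate number as a block, against 4.75% of all genes. It was 3 (Kcnk6, Kcnk5 and Kcnk13, 3.37%) with the methods' unpaired test in place of limma, against 2.03% of all genes, and no adjusted p was under 0.05 with either. The smallest unadjusted limma p was 0.101, for the leak channel gene Kcnk6. The cut-offs the study used ask for a log2 difference over 0.5 in size and an unadjusted p under 0.05. With these cut-offs and the limma p, the count was 0 higher (0.135% of all genes) and 0 lower (0.196% of all genes). The study's methods name an unpaired test in place of limma, so these shares are not the study's own counts. The log2 differences, R-SDS minus Control, ran from -0.35 for Kcnj2 to 0.28 for Kcne4, with a median of -0.02 over the 89 genes and 0.01 over all genes. For 37 genes the R-SDS mean was the higher one and for 52 the lower one. The median size of the difference was 0.07, and 0.07 over all genes too, beside a median standard error of 0.15 in both. The 95% interval of the difference lay within 0.5 on both sides of 0 for 55 of the 89 genes (61.8%), and for 61.1% of all genes. With 2 arrays against 2, an exact permutation test of a single gene cannot give a two-sided p below 0.333. In tissue RNA, fewer cells that express a channel and less RNA in each cell cannot be told apart.

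**Figure D1:**
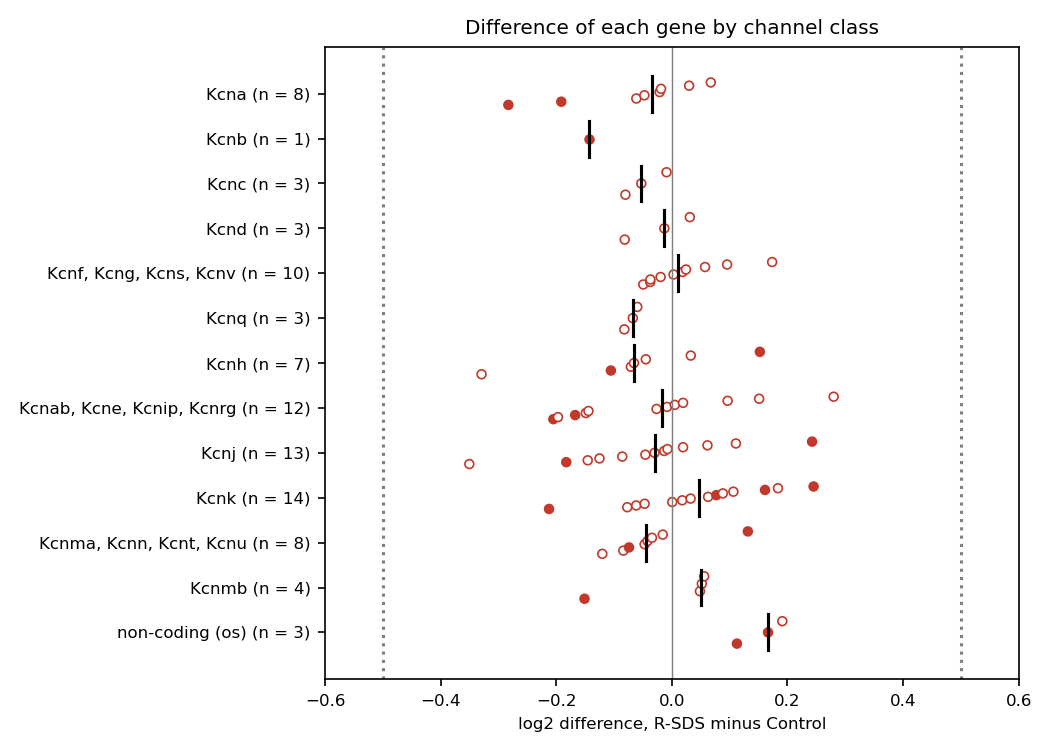
Log2 difference, R-SDS minus Control (horizontal axis), of the 89 genes by channel class (vertical axis, number of genes in brackets); filled points are genes whose R-SDS and Control arrays do not overlap, black bars are class medians, and dotted lines mark the 0.5 threshold of the study. All points lie between -0.35 and 0.28, and most class medians lie close to 0.

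Across 21789 transcripts, no independent replicates, the 4 arrays correlated at 0.988 to 0.996. Arrays with the same replicate number in their labels had value distributions of similar width, whatever the stress. Their interquartile ranges were 3.37 in R-SDS 1 and 3.34 in Control 1, but 3.11 in R-SDS 2 and 3.06 in Control 2. For this reason the gap of R-SDS 1 to Control 1 (number 1) and that of R-SDS 2 to Control 2 (number 2) stand beside many of the group differences. Hippocampal principal neurons were well represented in every array, with the vesicular glutamate transporter gene Slc17a7 at 12.17 and 11.93 in R-SDS arrays and 12.13 and 11.92 in Control arrays. Of their 12 markers, 9 had the higher mean in R-SDS and 3 the lower, with a median difference of 0.04. The largest differences in this list were those of Dsp and C1ql2, at 0.39 each, and both R-SDS arrays lay above both Control arrays for C1ql2. Whether these markers have a part in the channel values was not tested. Choroid plexus markers, which mark the ventricular epithelium, stood apart in R-SDS 1: all 12 measured of 13 had a higher R-SDS mean, with a median difference of 2.26 within number 1 and -0.04 within number 2. The log2 of their summed signal was 13.78 and 9.92 in R-SDS arrays against 11.72 and 9.41 in Control arrays. The values come without detection calls, so a value near the lower end of the scale cannot be called absent.

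Both R-SDS arrays lay above both Control arrays for 8 of the 89 genes (8.99%) and below them for 10 (11.2%), where the shares over all genes were 9.52% and 8.81%. The 8 genes above were Kcnk6, Kcnj14, Kcnd3os, Kcnk5, Kcnh2, Kcnn1, Kcnmb4os2 and Kcnk10. The 10 genes below were Kcna5, Kcnk13, Kcne3, Kcna4, Kcnj12, Kcnip1, Kcnmb2, Kcnb2, Kcnh4 and Kcnu1. Both shares were near those of all genes, and both sets were spread over several channel classes. Without single arrays the differences of Kcnk6 (0.22 to 0.27), Kcnk5 (0.13 to 0.19) and Kcnk13 (-0.25 to -0.17) stayed close to their values. Those of Kcnip1 (-0.26 to -0.08), Kcnmb2 (-0.23 to -0.07), Kcnb2 (-0.21 to -0.08), Kcnn1 (0.05 to 0.21) and Kcnk10 (0.01 to 0.14) did not. The ranges of Kcna5 (-0.41 to -0.15), Kcnj14 (0.10 to 0.38), Kcna4 (-0.31 to -0.07) and Kcnh2 (0.04 to 0.26) were wider still.

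**Figure D2:**
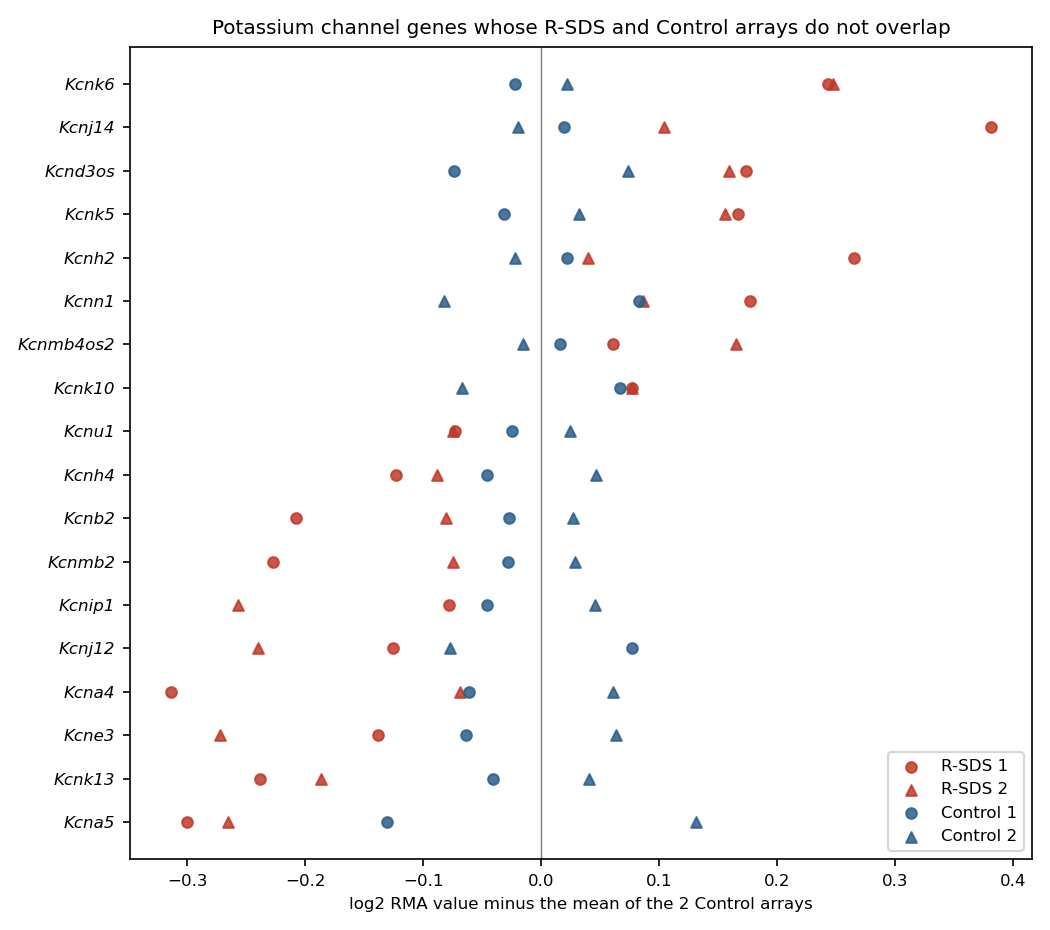
Log2 RMA value of each array minus the mean of the 2 Control arrays (horizontal axis) for the 18 genes whose R-SDS and Control arrays do not overlap (vertical axis). R-SDS arrays are red and Control arrays blue, with circles for number 1 and triangles for number 2. The R-SDS points of Kcnk6 nearly coincide, at 6.36 each before centring, while those of Kcnj14 and Kcna4 are far apart.

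Among the leak channels, Kcnk6, which encodes a weakly inward rectifying leak subunit, measured 6.36 and 6.36 in R-SDS arrays against 6.09 and 6.13 in Control arrays. Its R-SDS arrays differed from each other by less than the gap to either Control array, and the log2 difference was 0.25 (SE 0.13, 95% interval -0.06 to 0.56), a 1.19-fold signal. Kcnk13, the subunit that sets the resting conductance of microglia, went the other way, with 5.49 and 5.54 in R-SDS arrays and 5.69 and 5.77 in Control arrays. The difference of Kcnk13 was -0.21 (SE 0.13), with -0.20 within number 1 and -0.23 within number 2. Microglial markers lay close to the control level beside it, with 3 of the 5 measured of 6 higher in the R-SDS mean and a median difference of 0.00. The microglial fractalkine receptor gene Cx3cr1 was 8.15 and 8.14 in R-SDS arrays and 8.15 and 8.14 in Control arrays. Kcnk5, an alkaline-activated leak channel, measured 5.11 and 5.10 in R-SDS arrays against 4.91 and 4.97 in Control arrays, a difference of 0.16 near the lower quartile of the scale. Kcnk10, a stretch- and lipid-gated subunit, barely separated the groups, at 7.439 and 7.439 in R-SDS arrays and 7.429 and 7.294 in Control arrays.

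Kcnk2, a close relative of Kcnk10, encodes a leak channel that several antidepressants block and whose loss in mice lessens depression-like behaviour. Its arrays overlapped, with 8.30 and 8.39 in R-SDS and 8.36 and 8.20 in Control, and its difference was 0.06 (95% interval -0.27 to 0.40). Kcnk1, a leak subunit of neurons and astrocytes, was 10.04 and 9.68 in R-SDS arrays and 9.76 and 9.59 in Control arrays, with a difference of 0.28 within number 1 and 0.09 within number 2. The group difference of Kcnk1 was 0.18, but 0.00074 without R-SDS 1, the array with the high choroid plexus markers, whose part in it was not tested. Leaving out R-SDS 2 gave 0.37 and leaving out Control 2 gave 0.10. Kcnk9, an acid-sensitive leak channel, differed by -0.05 (95% interval -0.42 to 0.32). Over the 14 leak channel genes the median difference was 0.05, and 10 had the higher mean in R-SDS. That median ran from 0.02 without R-SDS 2 to 0.07 without Control 1. The other leak channel genes (Kcnk3, Kcnk4, Kcnk7, Kcnk12, Kcnk15, Kcnk16 and Kcnk18) lay between -0.08 for Kcnk4 and 0.11 for Kcnk16.

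Among the inward rectifiers, Kcnj2 had the most negative difference of all 89 genes. It encodes a strong rectifier that holds neurons and vascular cells near the potassium equilibrium. It measured 6.35 and 5.88 in R-SDS arrays against 6.75 and 6.18 in Control arrays, so that R-SDS 1 lay above Control 2 and the groups overlapped. Within number 1 the difference was -0.40 and within number 2 it was -0.30, which made a group difference of -0.35 (SE 0.25, 95% interval -0.95 to 0.25, limma unadjusted p = 0.203). The difference of Kcnj2 stayed negative whichever array was left out. It was -0.58 without R-SDS 1, -0.64 without Control 2, -0.12 without R-SDS 2 and -0.07 without Control 1. An omission leaves 1 group with a single replicate number. These values therefore also take in the gap between number 1 and number 2 arrays, which was 0.52 for Kcnj2. The other strong rectifiers had differences of both signs. Kcnj12 was 5.63 and 5.52 in R-SDS arrays and 5.84 and 5.68 in Control arrays (-0.18), and Kcnj4 overlapped with a difference of 0.11. Kcnj14 was 5.31 and 5.03 in R-SDS arrays and 4.95 and 4.91 in Control arrays (0.24), near the lower quartile of the scale. Kcnj14 stood apart mainly in R-SDS 1, the array with the high choroid plexus markers, and its difference was 0.10 without that array. Whether these markers have a part in it was not tested.

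Genes of the channels opened by G proteins, which carry slow inhibition by GABA, serotonin and adenosine, overlapped between the groups without exception. Over all genes 16283 of 19938 overlapped too, so this is no result about these channels. Kcnj6 and Kcnj9 also separated the replicate numbers without overlap, and such genes cannot separate the groups. Kcnj3 measured 9.22 and 9.32 in R-SDS arrays and 9.26 and 9.24 in Control arrays, and its difference was 0.02 (95% interval -0.30 to 0.34). Kcnj6 differed by 0.06 and Kcnj9 by -0.01, the last with -0.22 within number 1 and 0.21 within number 2. Kcnj5, near the lower end of the scale, differed by -0.03. The astrocytic channel gene Kcnj10 was 8.15 and 8.08 in R-SDS arrays and 8.34 and 8.14 in Control arrays, a difference of -0.13 (SE 0.14) that was -0.02 without Control 1 and -0.23 without Control 2. Astrocyte markers lay the other way beside it, with 7 of 8 higher in the R-SDS mean and a median difference of 0.12. Kcnj16, the partner subunit of Kcnj10, had opposite signs in the numbers, with -0.34 in number 1 and 0.17 in number 2. Kcnj11, the pore of the channel closed by ATP, differed by -0.01. Kcnj1, a renal rectifier, and Kcnj15 were dim and differed by -0.05 and -0.15. The median over the 13 inward rectifiers was -0.03, and -0.11 to -0.02 without single arrays. The excluded Kcnj13 and Kcne2, both expressed by choroid plexus epithelium, differed by 1.57 and 0.97 with R-SDS 1 far above the other arrays. The excluded Kcnj8 of mural cells, the cells wrapped around small vessels, differed by 0.14.

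Of the voltage-gated pore genes, Kcna5, a delayed rectifier also known from vascular muscle and microglia, had the largest non-overlapping difference. It measured 4.86 and 4.90 in R-SDS arrays against 5.03 and 5.29 in Control arrays, a difference of -0.28 (SE 0.15, limma unadjusted p = 0.103). These values lie near the lower quartile of the scale (4.99), and the difference was -0.15 without Control 2. Kcna4, which forms the inactivating A-type channels of hippocampal axons, was 7.56 and 7.81 in R-SDS arrays and 7.82 and 7.94 in Control arrays. Its difference of -0.19 was -0.25 within number 1 and -0.13 within number 2, and it was -0.07 without R-SDS 1. Kcnb2, a delayed rectifier of the soma and dendrites, was 7.86 and 7.99 in R-SDS arrays and 8.04 and 8.09 in Control arrays (-0.14). Kcna1 and Kcna2, the axonal channels that keep neurons from firing repeatedly, differed by -0.02 each, with 95% intervals of -0.39 to 0.35 and -0.37 to 0.33. In both genes R-SDS was lower within number 1 (-0.08 and -0.12) and higher within number 2 (0.04 and 0.08). The remaining Kcna genes (Kcna3, Kcna6, Kcna7 and Kcna10) lay between -0.06 and 0.07.

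The fast-spiking channel genes Kcnc1 and Kcnc2, which are prominent in interneurons, differed by -0.08 and -0.01, and Kcnc4 of the same group by -0.05. Interneuron markers lay near the control level too, with 2 of 8 higher in the R-SDS mean and a median difference of -0.02. Kcnd2, the main pore of dendritic A-type channels in hippocampal pyramidal cells, measured 10.35 and 10.25 in R-SDS arrays and 10.30 and 10.24 in Control arrays. Its difference was 0.03 (95% interval -0.29 to 0.35). Kcnd3 differed by -0.08 and Kcnd1 by -0.01. Kcnd3os, the non-coding transcript named after Kcnd3, lay above in both R-SDS arrays, at 6.59 and 6.57 against 6.34 and 6.49 in Control arrays (0.17), beside the -0.08 of Kcnd3.

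The M-type channel genes measured were Kcnq3 and Kcnq5, with 9.50 and 9.84 for Kcnq3 in R-SDS arrays against 9.69 and 9.79 in Control arrays. Kcnq3 differed by -0.07 (95% interval -0.46 to 0.33) and Kcnq5 by -0.06 (95% interval -0.47 to 0.35). Kcnq1, a cardiac and epithelial channel, differed by -0.08. In the Kcnh group, Kcnh5 had the next most negative difference of the 89 genes after Kcnj2, at 7.58 and 7.33 in R-SDS arrays against 8.03 and 7.54 in Control arrays. R-SDS 1 lay above Control 2, so the groups overlapped, although the difference was -0.45 within number 1 and -0.21 within number 2. The group difference of Kcnh5 was -0.33 (SE 0.20, limma unadjusted p = 0.157), and without Control 2 it was -0.58. It was -0.46 without R-SDS 1, -0.20 without R-SDS 2 and -0.08 without Control 1. The omissions also take in the gap between number 1 and number 2 arrays, which was 0.38 for Kcnh5. Kcnh1, which belongs to the same ether-a-go-go subgroup, differed by 0.03. Kcnh2, the channel of the cardiac rapid delayed rectifier that is also found in neurons, was 7.33 and 7.10 in R-SDS arrays and 7.09 and 7.04 in Control arrays, a difference of 0.15 that was 0.04 without R-SDS 1. Kcnh4 was 6.57 and 6.61 in R-SDS arrays and 6.65 and 6.74 in Control arrays (-0.11). Kcnh7, Kcnh3 and Kcnh8 lay between -0.07 and -0.05.

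The silent subunits Kcnf, Kcng, Kcns and Kcnv had a median stress difference of 0.01, with a range of -0.05 for Kcnv2 to 0.17 for Kcng1. Kcng1 measured 8.85 and 8.64 in R-SDS arrays and 8.76 and 8.38 in Control arrays, and its arrays overlapped. Kcns3 differed by 0.10, mostly within number 2 (0.18). Without single arrays the median of this class was -0.03 to 0.12. The arrays of R-SDS and Control overlapped in all 10 genes, where they did not in 3655 of 19938 over all genes. All 10 separated the replicate numbers without overlap, and a gene that does so cannot also separate the groups. The count of 10 is therefore no result about stress.

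Among auxiliary subunits of voltage-gated channels, Kcne4, a small inhibitory membrane subunit, had the most positive difference of all 89 genes. It measured 4.78 and 4.49 in R-SDS arrays against 4.22 and 4.49 in Control arrays, with a gap of 0.56 in number 1 and of -0.0049 in number 2. The group difference of Kcne4 was 0.28 (SE 0.17), or 0.13 without R-SDS 1, and its values lie below the lower quartile of the scale. Its R-SDS 1 value stood beside the high choroid plexus markers of that array, and their part in it was not tested. Kcne3, a small membrane subunit of Kcnq1 channels, went the other way, with 4.82 and 4.69 in R-SDS arrays and 4.89 and 5.02 in Control arrays (-0.21). The mean level of Kcne3 lies below the lower quartile of the scale too. The calcium-binding Kcnip proteins bind Kcnd channels and bring them to the surface. Kcnip1, found mainly in interneurons, was 7.33 and 7.15 in R-SDS arrays and 7.36 and 7.46 in Control arrays (-0.17), whereas Kcnip3, which also acts as a transcriptional repressor, was 11.22 and 11.09 in R-SDS arrays and 11.17 and 10.84 in Control arrays (0.15). Kcnip2 and Kcnip4 differed by 0.02 and 0.00. Kcnab2, the beta subunit that carries Kcna channels to the axon, differed by 0.10, with 0.10 within number 1 and 0.09 within number 2, but overlapped because the numbers lay apart (11.68 and 11.31 in R-SDS arrays, 11.58 and 11.22 in Control arrays). Kcnab1 differed by -0.01 and Kcnab3 by -0.20 with overlapping arrays. Kcnrg, Kcne1 and Kcne1l differed by -0.15, -0.14 and -0.03, with Kcne1 below the lower quartile of the scale and Kcnrg near it.

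Among channels gated by calcium or sodium and related pore subunits, Kcnma1 is the large-conductance channel that shapes the action potential and transmitter release. It measured 9.82 and 10.18 in R-SDS arrays and 10.02 and 10.15 in Control arrays. Its difference was -0.08 (95% interval -0.49 to 0.32). Kcnn2, the small-conductance channel behind the afterhyperpolarisation of pyramidal cells, differed by -0.03 and Kcnn3 by -0.04. Kcnn1 lay above in both R-SDS arrays, at 6.91 and 6.82 against 6.81 and 6.65 in Control arrays (0.13), by a narrow margin between R-SDS 2 and Control 1. Kcnn4, of blood cells and microglia, differed by -0.05. The sodium-activated Kcnt1 differed by -0.02, and Kcnt2 by -0.36 within number 1 and 0.12 within number 2. Kcnu1, a sperm channel with values near the lower end of the scale, was 4.43 and 4.43 in R-SDS arrays and 4.48 and 4.53 in Control arrays. The beta subunit Kcnmb2, which inactivates Kcnma1 channels, was 5.89 and 6.05 in R-SDS arrays and 6.09 and 6.15 in Control arrays (-0.15). Kcnmb4, the main neuronal beta subunit, differed by 0.05, and Kcnmb1 and Kcnmb3 by 0.05 and 0.06. Both non-coding transcripts named after Kcnmb4 had higher R-SDS means, Kcnmb4os1 by 0.19 with overlapping arrays and Kcnmb4os2 by 0.11, with 5.24 and 5.34 in R-SDS arrays and 5.19 and 5.16 in Control arrays.

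A list of channels known from hippocampal neurons, glia or mood was also followed, with 26 genes analysed. Of the 26, 9 had the higher mean in R-SDS and 17 the lower, with a median difference of -0.02, and only Kcna4 had arrays that did not overlap (3.85%), where 3655 of all 19938 genes did not. Number 1 arrays lay above number 2 arrays without overlap for 14 of the 26 and below them for 7, and such genes cannot separate the groups. For 19 of the 26 the 95% interval lay within 0.5 on both sides of 0.

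**Figure D3:**
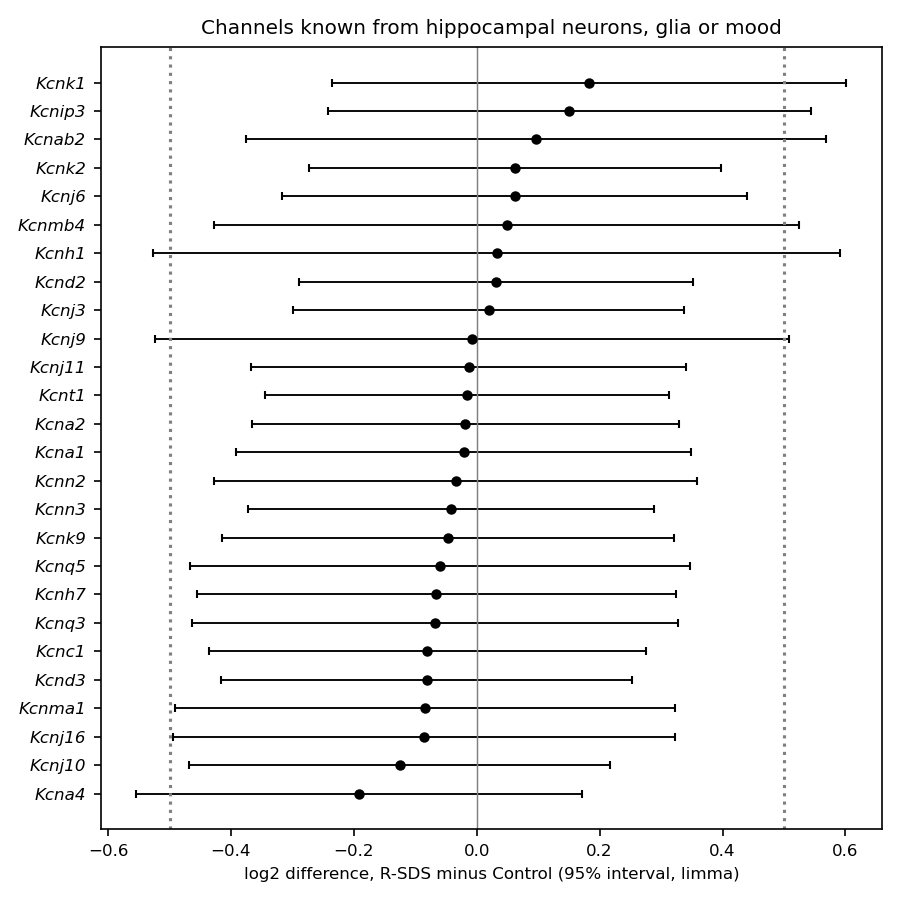
Log2 difference, R-SDS minus Control (horizontal axis), of 26 channels known from hippocampal neurons, glia or mood (vertical axis), with the 95% interval of the limma fit as bars; dotted lines mark the 0.5 threshold of the study. Every interval holds 0, and the differences run from -0.19 for Kcna4 to 0.18 for Kcnk1.

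The differences within the numbers had the same sign for 47 of the 89 genes, higher in R-SDS in both for 22 and lower in both for 25. Over all genes the sign was shared by 10001 of 19938. Across the 89 genes the 2 differences correlated at r = 0.13 (across all genes r = 0.03), a description over genes that share arrays and a normalisation. Kcnk6 (0.26 and 0.23) and Kcnk13 (-0.20 and -0.23) had gaps of similar size in numbers 1 and 2, and so had Kcnj12 (-0.20 and -0.16). Kcne1l had a gap of 0.26 in number 1 and -0.32 in number 2, and Kcna10 one of 0.28 in number 1 and -0.22 in number 2.

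**Figure D4:**
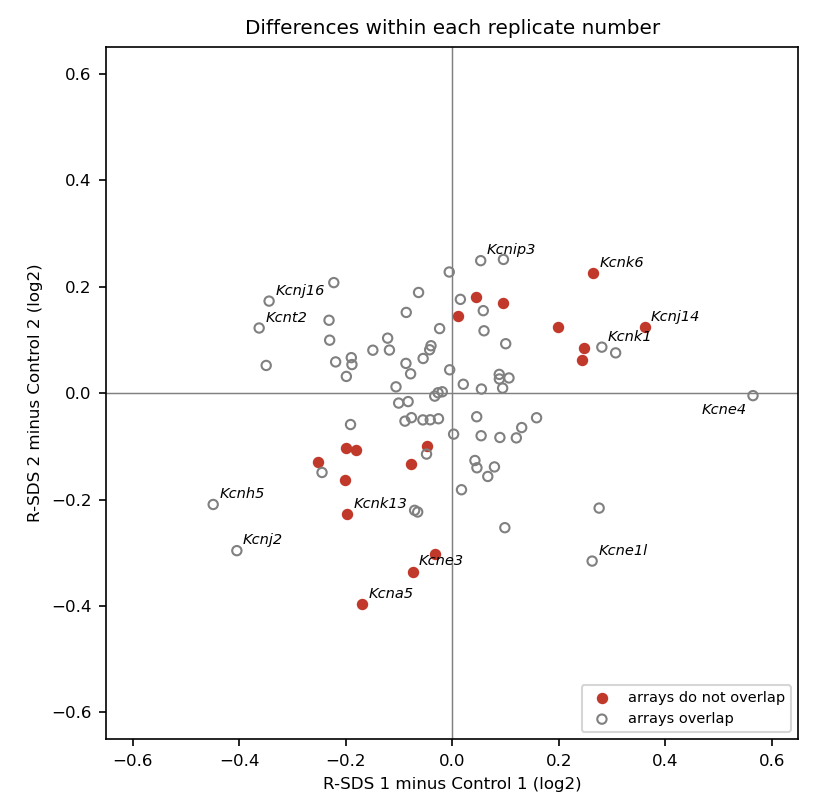
R-SDS 1 minus Control 1 (horizontal axis) against R-SDS 2 minus Control 2 (vertical axis), both in log2 units, for the 89 genes; filled points are genes whose groups do not overlap. Kcnj2 and Kcnh5 lie low on both axes and Kcnk6 high on both, while Kcne4 lies at 0.56 on the horizontal axis and at -0.0049 on the vertical one.

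The replicate numbers differed more than the groups for most channel genes. The mean of both number 1 arrays differed from that of both number 2 arrays by more than R-SDS differed from Control for 66 of the 89 genes (74.2%), and for 72.6% of all genes. Both number 1 arrays lay above both number 2 arrays for 33 genes and below them for 25, together 65.2% against 61.1% of all genes. The largest of these gaps was that of Kcns2, with 7.60 in R-SDS 1 and 7.62 in Control 1 but 7.03 in R-SDS 2 and 7.07 in Control 2. The gap of Kcns2 was 0.56, beside a stress difference of -0.04. Kcnf1 (0.52), Kcnj2 (0.52), Kcns1 (0.48), Kcnk4 (0.47) and Kcnh1 (0.46) had gaps of the same kind, and that of Kcnj2 was larger than its stress difference of -0.35. All 10 silent subunit genes separated the numbers without overlap, 7 of them higher in number 1. Kcnj1 (-0.53), Kcna7 (-0.48) and Kcnmb4os1 (-0.42) were lower in number 1. Across the 89 genes the gap correlated with the mean level at r = 0.42, and at r = 0.38 across all genes, as a description beside the wider distributions of the number 1 arrays. The labels do not say what a replicate number stands for, and why the numbers differ was not tested.

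**Figure D5:**
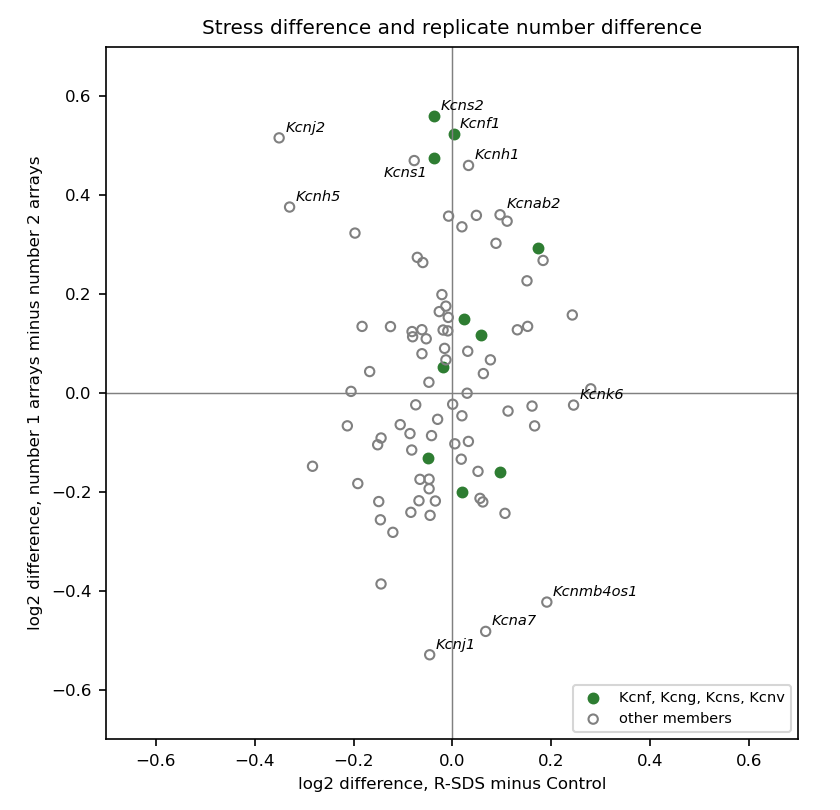
Log2 difference between R-SDS and Control (horizontal axis) and between the number 1 arrays and the number 2 arrays (vertical axis, number 1 minus number 2) for the 89 genes on axes of equal scale, with the Kcnf, Kcng, Kcns and Kcnv genes in green. The points spread further up and down than sideways, with Kcns2 at 0.56 and Kcnj1 at -0.53 on the vertical axis.

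Of 27 genes for channel partners not named Kcn, 24 were measured, and 0 passed in limma at an adjusted or an unadjusted p under 0.05. Both R-SDS arrays lay above both Control arrays for 2 (8.33%, against 9.52% of all genes) and below them for 6 (25%, against 8.81% of all genes), with a median difference of -0.03. The list is short and was not tested as a group. The one above by the most was Abcc9, a sulphonylurea receptor that pairs with Kcnj8 in mural cells, at 7.13 and 6.92 in R-SDS arrays and 6.75 and 6.60 in Control arrays (0.35, SE 0.15). Mural cell markers, of which Abcc9 is one, had a higher R-SDS mean for 8 of 9, with a median of 0.14, and their part in it was not tested. Lgi1, a secreted protein of the axonal Kcna complex, was 10.61 and 10.71 in R-SDS arrays and 10.52 and 10.52 in Control arrays (0.14). Those below included Cntnap2 (-0.15) and Cntn2 (-0.18), which cluster Kcna channels beside the node of Ranvier, and Dpp10 (-0.21), an auxiliary subunit of Kcnd channels. The pancreatic and neuronal sulphonylurea receptor gene Abcc8 (-0.17), the G protein regulator Rgs7 (-0.09) and the sodium pump subunit Atp1b1 (-0.03) also lay below in both R-SDS arrays. Lrrc55, a gamma subunit of Kcnma1 channels, overlapped with a difference of -0.23. The GABA-B receptor genes Gabbr1 and Gabbr2, whose receptors open Kcnj3 channels, differed by -0.03 and -0.05.

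For 3 genes the annotation held a further row. The dimmer row of Kcna2 differed by -0.07, that of Kcnh8 by -0.09 and that of Kcnma1 by 0.08, against -0.02, -0.05 and -0.08 for the rows used. Some channel genes are neighbours in the RefSeq order. Of these, Kcnj2 and Kcnj16 on chromosome 11 differed by -0.35 and -0.09, and Kcna5 and Kcna1 on chromosome 6 by -0.28 and -0.02. Kcnk5 and Kcnk16 on chromosome 14 differed by 0.16 and 0.11. Signs were also shared by Kcnj9 and Kcnj10, Kcna3 and Kcna2, Kcna1 and Kcna6, and Kcnj5 and Kcnj1. Signs were opposite in Kcnip1 and Kcnmb1 (-0.17 and 0.05), Kcnj6 and Kcnj15 (0.06 and -0.15), and Kcna2 and Kcna10 (-0.02 and 0.03).

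The promoters, taken as the 250 bases before the start of each gene from RefSeq (GRCm38.p6, the first start listed per gene), were found for 67 of the 89 genes. They had a median GC content of 60% against 56.4% over 15614 genes. The letters TATAAA, searched on both strands, stood in 1 of the 67 (1.49%) against 11.2% of all genes, in Kcnj9. GGGCGG, a GC box, stood in 49.3% against 46.0%. The cyclic AMP response element TGACGTCA stood in 0 of the 67 and in 2.12% of all genes, and the full glucocorticoid response element, a palindrome of the next motif, in 0 and in 0.0064%. AGAACA, a half-site of that receptor for stress hormones and a part of the full element, stood in 7 (10.4%) against 13.4%, and these included Kcnj10 and Kcnk2. The 3 promoters below are shown as the one with TATAAA and as those of the astrocytic and the mood-related channel among the genes with the half-site, with the matched letters in capitals. The capitals begin 168, 191 and 241 bases before the start, and those of Kcnj10 are the half-site read from the other strand. The table lists 4 starts for Kcnk2, of which the first is used.
Kcnj9 (chr1:172329323-172329572, minus strand): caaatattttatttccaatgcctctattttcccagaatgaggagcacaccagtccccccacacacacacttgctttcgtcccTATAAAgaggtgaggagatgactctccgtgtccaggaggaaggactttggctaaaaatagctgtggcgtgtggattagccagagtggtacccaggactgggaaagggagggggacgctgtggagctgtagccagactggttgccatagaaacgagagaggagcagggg
Kcnj10 (chr1:172340960-172341209, plus strand): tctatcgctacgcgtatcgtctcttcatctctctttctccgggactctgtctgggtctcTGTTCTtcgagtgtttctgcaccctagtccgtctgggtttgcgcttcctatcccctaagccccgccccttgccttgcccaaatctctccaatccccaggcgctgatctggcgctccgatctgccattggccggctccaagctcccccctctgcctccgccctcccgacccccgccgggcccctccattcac
Kcnk2 (chr1:189402274-189402523, minus strand): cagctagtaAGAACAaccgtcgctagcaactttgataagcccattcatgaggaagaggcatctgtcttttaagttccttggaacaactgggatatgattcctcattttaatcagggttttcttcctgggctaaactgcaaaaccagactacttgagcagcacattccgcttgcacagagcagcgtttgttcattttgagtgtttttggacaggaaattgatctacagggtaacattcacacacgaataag
A match of letters is a description and no binding site, and the expression of these 3 genes did not pass the test (-0.01, -0.13 and 0.06).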

How the data were processed

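Hippocampal total RNA was labelled and hybridised to Affymetrix Mouse Gene 1.0 ST arrays. The authors deposited log2 values, which they had computed by RMA with Expression Console. The columns do not share identical distributions, and the sources used here do not give which arrays were normalised together. Precision is limited by the few arrays, and no detection calls come with the values. Of 35556 rows, 21789 had 1 gene symbol (19938 genes) and were tested, and 1621 had several and 12146 none listed. Groups and replicate numbers came from the sample titles.

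R-SDS was compared with Control by limma 3.58.1 (lmFit and eBayes, R 4.3.3) on all 4 arrays, with no covariate and no filter, two-sided, with Benjamini-Hochberg adjustment over all tested rows. Standard errors and 95% intervals are limma's moderated ones (2 residual and 4.07 prior degrees of freedom). The fit was tested on simulated data. Figures were drawn with matplotlib 3.10.9. Shares over all genes use the brightest row of each gene.

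Members and lists were chosen with earlier results of these data known. Genes named by rule (53) were those past the thresholds of the study, up to 10 non-overlapping genes in each direction, the 2 largest differences of each class and a list of known channels. Partner genes were named if their groups did not overlap or their difference was among the 3 largest. All other members and the promoters shown were named after their values were seen, as were Gabbr1 and Gabbr2, and markers were named beside the genes they concern. Alternatives were the replicate number as a block, quantile normalisation, removal of rows below the lower quartile of row means, the mean of all rows of a gene, omission of each array, and the methods' t-test (Student's unpaired test). Medians are descriptions, with no set test.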

Additional observations from a re-analysis of the deposited data

How the results depend on the processing

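With an adjusted p under 0.05, 0 of the 89 genes and 0% of all tested rows were called under each alternative that kept all 4 arrays. At an unadjusted p under 0.05 the count was 0 in the limma fit, against 0.983% of all genes. With the replicate number as a block it was 4 (Kcnj2, Kcnh5, Kcna5 and Kcnk6), against 4.75% of all genes. The methods' t-test gave 3 (Kcnk6, Kcnk5 and Kcnk13), against 2.03% of all genes. In the block the smallest adjusted p of the 89 was 0.960. Same-numbered arrays deviated together (r = 0.52 over 21789 rows), but 2 pairs do not show that the numbers pair the samples, and the labels do not say so. With the cut-offs of the study the higher and the lower count stayed 0 under each alternative that kept all 4 arrays. Fits that leave out an array are given by the size of the difference only. In these fits the lone array of a group was assumed to vary like those of the other group. Genes above without overlap numbered 23 to 29 and genes below 22 to 36 when a single array was left out. Such counts rise because 3 arrays overlap less often than 4. They stand without the shares over all genes under the same omissions, and so are no result about channel genes. The median difference of the 89 genes was -0.0494 to 0.00243 without single arrays and kept within the spread between replicates under quantile normalisation, the filter and the mean of rows.

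Of all 89 genes, 26 kept their sign under every alternative. The 18 genes whose R-SDS and Control arrays do not overlap cannot turn when an array is left out. All 18 are among the 53 genes named by rule, so a count of kept signs there was largely fixed by the choice of genes. Of these 53 genes, 24 kept their sign under every alternative, and the other 29 turned in at least 1 omission of an array. Their differences without single arrays ran from -0.149 to 0.107 (Kcna1), -0.132 to 0.0947 (Kcna2), -0.0858 to 0.279 (Kcnab2), -0.207 to 0.0459 (Kcnc1), -0.109 to 0.00318 (Kcnc4), -0.0230 to 0.0851 (Kcnd2), -0.0125 to 0.359 (Kcng1), -0.246 to 0.312 (Kcnh1), -0.235 to 0.104 (Kcnh7), -0.0115 to 0.313 (Kcnip3), -0.108 to 0.0816 (Kcnj11) and -0.256 to 0.0845 (Kcnj16). They ran from -0.0347 to 0.0733 (Kcnj3), -0.0618 to 0.185 (Kcnj6), -0.294 to 0.279 (Kcnj9), -0.0201 to 0.145 (Kcnk2), -0.173 to 0.0791 (Kcnk9), -0.262 to 0.0943 (Kcnma1), -0.102 to 0.214 (Kcnmb3), -0.167 to 0.265 (Kcnmb4), -0.0782 to 0.460 (Kcnmb4os1), -0.201 to 0.132 (Kcnn2), -0.128 to 0.0432 (Kcnn3), -0.190 to 0.0251 (Kcnq1), -0.237 to 0.102 (Kcnq3), -0.212 to 0.0927 (Kcnq5), -0.0246 to 0.216 (Kcns3), -0.0967 to 0.0652 (Kcnt1) and -0.383 to 0.142 (Kcnt2). An omission leaves 1 group with a single replicate number, so these ranges also take in the gap between number 1 and number 2 arrays. Kcnab2 turned although it differed by 0.10 within number 1 and 0.09 within number 2. Why the numbers differ was not tested. Of the 89 genes, 80 lie above the lower quartile of the scale, and for the 9 below it the signal limits what can be seen.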
